A study of Mus musculus with 6 samples.

Results

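Lysosomal genes were examined in M1, a mouse neuroblastoma cell line (neuroblastoma is a tumour of the sympathetic lineage), in libraries labelled with a hairpin against Igf2bp1 (shIGF2BP1, genotype IGF2BP1 knockdown, n = 3) and with a non-targeting hairpin (shNT, genotype WT, n = 3). The members were 37 listed genes for lysosomal enzymes, membrane proteins, proton pump parts and their transcription factors. All 37 were found by gene symbol among the 43629 mouse gene IDs of the deposited count table, and 36 had enough reads to be tested. All 6 cultures received doxycycline at 4 to 6 µg/ml for 6 days to switch on the hairpin, and poly-A RNA was sequenced. The labels tell apart no more than 1 hairpin a group, so its effect and any other difference between the 2 sets of cells cannot be told apart. The labels leave the origin of the replicates unstated, and p-values cover only the variation among these libraries, which could be technical.

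Lysosomes are acidic compartments in which hydrolases break down proteins, glycans and lipids delivered from outside the cell and by autophagy. The V-ATPase proton pump keeps them acidic, heavily glycosylated membrane proteins line them, and many of their genes are driven by TFEB and TFE3, which bind an E-box called the CLEAR motif. CD68 is a glycosylated protein of the LAMP family that is widely used as a macrophage marker but is also made by other cells. Cd68 was known to be lower in the shIGF2BP1 libraries when the list was drawn up, and the question was whether its level moved with those of the other lysosomal genes.

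The libraries held 25119655 to 34014482 counts in shIGF2BP1 and 30756389 to 35373076 in shNT. Igf2bp1, the target, had 67, 35 and 311 counts in the libraries labelled shIGF2BP1, against 37, 175 and 201 in shNT (log2 fold change 0.25 ± 0.79 SE, edgeR adjusted p = 0.966). The target's mRNA was thus not lower on average in the libraries labelled shIGF2BP1, but its 95% interval, -1.50 to 2.00, was wide and the estimate turned to -1.24 without shIGF2BP1 replicate 3. Each direction below compares the libraries as labelled. shNT replicate 3 stood apart, with a chi-square per gene of 152 to 251 against each other library, where pairs without it gave 46.8 to 162. The sympathetic markers Th, Dbh and Chga had 0 counts in all 6 libraries. Hand2, a factor of sympathetic development, had 429 to 457 CPM (read counts scaled to library size, TMM-normalised) in the libraries labelled shIGF2BP1 and 257 to 480 CPM in shNT. edgeR's quasi-likelihood test called 3 of 13445 genes at a Benjamini-Hochberg adjusted p under 0.05, which is 0.0223% of the genes tested, and none of the 36 lysosomal members was among them. At an unadjusted p under 0.05 edgeR counted 1 of the 36 members (Cd68), against 7.16% of all genes, and DESeq2 called 1 (also Cd68) after adjustment, where it called 82 of 13440 genes (0.61%).

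The promoters of 4 members are shown because they differ in the letters of the E-box core CACGTG, the centre of the CLEAR motif, and belong to the gene that prompted the question and to 3 of the lysosome's standard components. Each is the RefSeq window on GRCm38.p6 from 250 bases before to 50 after the annotated start, 5′ to 3′ on the gene's strand, with CACGTG in capitals. They are Cd68 at chr11:69666121-69666420 on the minus strand, the membrane protein Lamp1 at chr8:13158911-13159210 on the plus strand, the protease Ctsd at chr7:142387778-142388077 on the minus strand and the calcium channel Mcoln1 at chr8:3500269-3500568 on the plus strand.
Cd68: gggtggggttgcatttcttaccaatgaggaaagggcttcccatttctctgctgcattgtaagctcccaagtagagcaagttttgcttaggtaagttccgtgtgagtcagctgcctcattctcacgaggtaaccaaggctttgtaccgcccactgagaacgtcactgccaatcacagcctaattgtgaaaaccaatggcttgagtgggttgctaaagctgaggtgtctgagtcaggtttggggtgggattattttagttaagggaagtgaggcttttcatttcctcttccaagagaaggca
Lamp1: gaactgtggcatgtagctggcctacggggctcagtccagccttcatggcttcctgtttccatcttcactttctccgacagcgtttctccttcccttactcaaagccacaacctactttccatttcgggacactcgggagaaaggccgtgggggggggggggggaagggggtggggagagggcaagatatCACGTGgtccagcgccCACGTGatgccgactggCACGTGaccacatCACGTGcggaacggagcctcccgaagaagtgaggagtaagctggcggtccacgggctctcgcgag
Ctsd: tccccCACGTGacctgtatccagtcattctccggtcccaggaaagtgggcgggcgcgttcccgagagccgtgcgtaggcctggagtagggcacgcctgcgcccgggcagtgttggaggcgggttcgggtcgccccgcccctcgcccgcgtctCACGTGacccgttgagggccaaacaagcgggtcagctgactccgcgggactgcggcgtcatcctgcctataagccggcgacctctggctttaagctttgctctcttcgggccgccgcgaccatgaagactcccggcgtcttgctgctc
Mcoln1: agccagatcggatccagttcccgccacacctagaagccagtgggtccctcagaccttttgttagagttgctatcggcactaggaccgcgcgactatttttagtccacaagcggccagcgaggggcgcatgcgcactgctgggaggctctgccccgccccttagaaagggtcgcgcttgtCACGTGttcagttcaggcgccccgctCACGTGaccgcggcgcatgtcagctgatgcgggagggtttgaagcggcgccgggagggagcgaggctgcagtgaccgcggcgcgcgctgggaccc

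The Cd68 window held 0 copies of CACGTG, the Lamp1 window 4, and the Ctsd and Mcoln1 windows 2 each. The core lay at -61, -45, -28 and -15 from the start in Lamp1, at -245 and -98 in Ctsd, and at -71 and -45 in Mcoln1, counted to the first base of each. RefSeq windows were matched for 32 of 37 members, and those not matched were Asah1, Atp6v1h, Ctsb, Ctsh and Npc1. On either strand, 12 of the 32 members (37.5%) had at least 1 CACGTG, against 11.8% of the 9519 tested genes with a window. The 12 were Atp6v0d1, Ctsa, Ctsd, Ctsf, Ctsl, Gaa, Gla, Glb1, Lamp1, Mcoln1, Naglu and Sgsh. The other 20 had none, so Cd68 shared this with most members, among them Psap, the most abundant per kilobase of exon. The full CLEAR palindrome, which is the core preceded by GT and followed by AC, was in 0 of the 32 and in 0.84% of tested genes. Shorter forms were counted after the first counts had been seen. The core preceded by T and followed by A was in 5 of the 32 (15.6%), against 2.28% of tested genes, and TCACGTG on either strand was in 10, against 7.07%. The letters are a description of these windows and not a measured binding site. Members with the core had a median log2 fold change (shIGF2BP1 over shNT) of 0.02, with 6 of 12 below 0, and those without it had a median of -0.09, with 14 of 20 below 0.

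Cd68 (ENSMUSG00000018774) is annotated at chr11:69664213-69666153 (GRCm38), minus strand. It had 3.66, 5.56 and 3.14 CPM in the shIGF2BP1 libraries, against 7.78, 14.6 and 13.1 CPM in shNT. Every shIGF2BP1 library was below every shNT library, a separation that 5.59% of all tested genes showed in the same direction. This gave a log2 fold change of -1.52 ± 0.36 (SE) and a 95% interval of -2.32 to -0.72. The unadjusted edgeR p was 0.00156, and 0.403 after adjustment over all genes. It ranked 52 among the 13445 genes by p. DESeq2 (adjusted p = 0.00811) and edgeR with no filter on low counts (adjusted p = 0.0187, with 0.654% of 21088 genes called) did call it. A two-sided exact permutation test of the mean log2 CPM gave p = 0.1, the smallest that 3 against 3 libraries allow. Any gene whose groups do not overlap gives this value, as Lamp1, Ctsz and Atp6ap1 did. Cd68 was already known to be lower in these libraries, so none of its p-values is an independent test. Per kilobase of annotated exon, Cd68 averaged 3.28 CPM in shIGF2BP1 and 9.43 CPM in shNT, so it was among the less abundant lysosomal transcripts in both groups.

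Cd68 is a macrophage marker, so other macrophage and microglia markers were read in the same libraries. Of 20 such markers, 6 (Adgre1, C1qa, C1qb, C1qc, Tyrobp and Laptm5) had 0 counts in all 6 libraries and 19 averaged under 1 CPM. Ptprc, the pan-leukocyte phosphatase, had 1 count in all. The summed level of the 20 was 6.20 to 7.17 CPM in shIGF2BP1 and 3.66 to 7.48 CPM in shNT, and Cd14, a lipopolysaccharide co-receptor, made up much of it at 3.52 ± 0.592 CPM in shIGF2BP1 and 2.38 ± 0.951 CPM in shNT. The 5 tested markers had 1 negative and 4 positive log2 fold changes. Trem2, a microglial receptor, was at 0.484 ± 0.391 CPM in shIGF2BP1 and 1.14 ± 1.01 CPM in shNT (log2 fold change -1.22, edgeR adjusted p = 0.841), and the Fc receptor chain Fcer1g at 0.438 ± 0.112 CPM in shIGF2BP1 and 0.0688 ± 0.0942 CPM in shNT (2.57, edgeR adjusted p = 0.616). The part of such cells in the Cd68 value was not tested. Of 8 fibroblast and mesenchymal markers, 5 were tested. Among the rest, Lum was at 0 and Thy1 had 1 count in all. Another, the collagen gene Col1a2, averaged only 0.226 CPM in shIGF2BP1 and 0.021 CPM in shNT. The summed level of the 8 was 339 to 644 CPM in shIGF2BP1 and 522 to 592 CPM in shNT. The largest part of that sum was the collagen gene Col1a1 (log2 fold change 0.01), at 228 to 493 CPM in shIGF2BP1 and 280 to 390 CPM in shNT. At an unadjusted edgeR p under 0.05, 3 of the 5 tested were lower, against 3.99% of all genes tested. The list was chosen with earlier results of these data known, so this share does not test it. The median over the 5 was -0.69. Prrx1, a mesenchymal transcription factor, was at 49 to 69.5 CPM in shIGF2BP1 and 130 to 148 CPM in shNT (log2 fold change -1.19, edgeR adjusted p = 0.13). The growth factor receptors Pdgfra (-0.69, edgeR adjusted p = 0.687) and Pdgfrb (-0.87, edgeR adjusted p = 0.695) were the others, and Dcn, a matrix proteoglycan, had 0.09. Their part in the Cd68 value was likewise not tested. In bulk RNA, fewer cells of a type and less RNA per cell cannot be told apart.

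**Figure D1:**
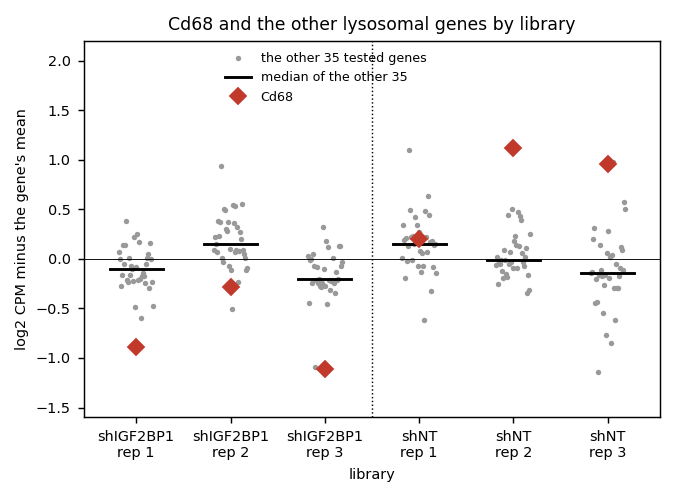
Each library's log2 CPM minus the gene's mean over the 6 libraries, for Cd68 (diamond) and for the other 35 tested lysosomal genes (points, with their median as a bar); shIGF2BP1 libraries are on the left of the dotted line and shNT libraries on the right. Cd68 lies below the median of the others in all 3 shIGF2BP1 libraries and far above it in shNT replicates 2 and 3, while the median of the others stays within 0.20 of 0 in every library.

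The median of the other lysosomal genes did not separate the groups as Cd68 did. On the log2 scale (prior count 2), the median of the other 35 members relative to each gene's own mean was -0.10, 0.15 and -0.20 in the shIGF2BP1 libraries, against 0.15, -0.01 and -0.14 in shNT. Those medians overlapped between groups. Cd68 itself stood at -0.88, -0.28 and -1.10 in shIGF2BP1, against 0.20, 1.11 and 0.95 in shNT. Its distance from the median of the others was therefore -0.78, -0.43 and -0.90 in shIGF2BP1, against 0.05, 1.12 and 1.09 in shNT. The summed level of the tested members was 6403, 7923 and 6156 CPM in shIGF2BP1, against 8164, 7026 and 6157 CPM in shNT, or 0.616% to 0.816% of a library.

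Over the 36 tested members, 22 had a negative and 14 a positive log2 fold change, 61.1% lower against 51.5% of all genes tested. Their median was -0.07 against -0.01 for all genes. With library sizes alone in place of TMM, 15 of 36 were lower (41.9% of all genes), and the median was 0.02. The split turned on single libraries. Without shIGF2BP1 replicate 2 the median was -0.24 with 26 lower. In turn, without shIGF2BP1 replicate 3 it was 0.033 with 15 lower, and without shNT replicate 1 it was 0.015 with 16 lower. At an unadjusted p under 0.05, 1 member (Cd68) was lower and 0 were higher, against 3.99% and 3.17% of all genes. Of the members other than Cd68, 34 of 35 had a log2 fold change within 0.5 of 0 (97.1%), against 81.2% of all genes and 88.2% of those averaging 5 CPM or more. Neither set was matched to the members in level, and most members were well above 5 CPM. The part of level in this difference was not tested. The 95% intervals of all 35 included 0. Some overlapped the interval of Cd68 (-2.32 to -0.72), among them that of Npc1 (-1.43 to 0.09), and the differences between members were not tested. Their median half-width was 0.53, so an estimate smaller than that could not be told from 0 for a typical member. These intervals are not adjusted for the number of genes. The adjusted threshold asks for more, as Cd68 at -1.52 did not pass it, so changes well above 0.53 could also be missed.

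**Figure D2:**
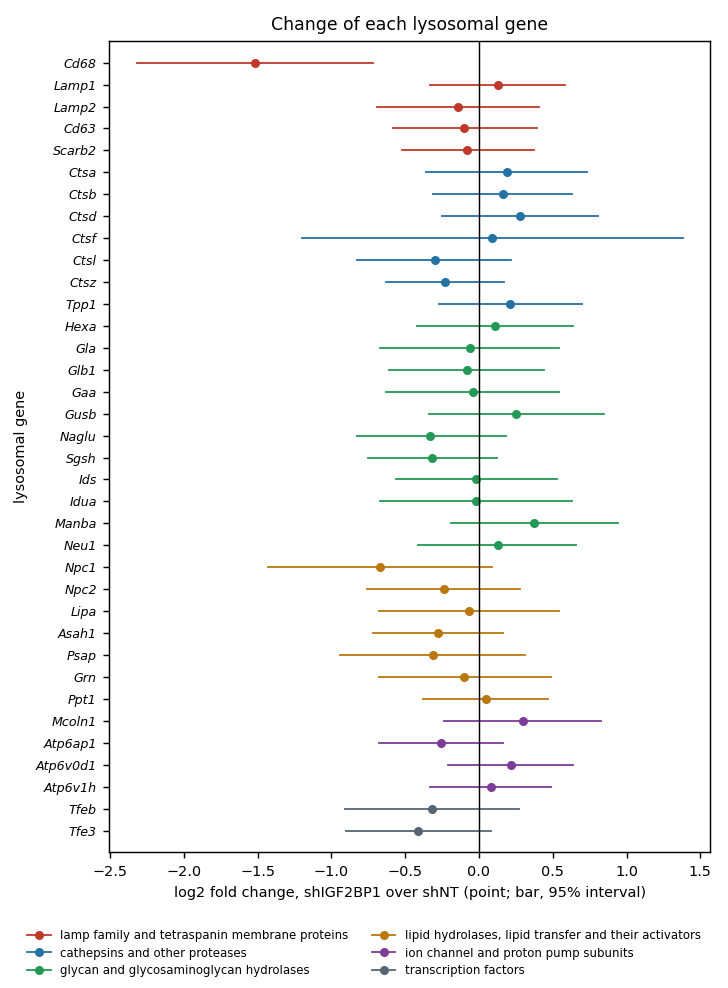
Log2 fold change of each of the 36 tested lysosomal genes, shIGF2BP1 over shNT (point), with its 95% interval from edgeR (bar), coloured by role. Cd68 alone has an interval that does not reach 0 (edgeR adjusted p = 0.403), and the intervals of the other 35 cross it. The intervals are not adjusted for the number of genes, and Cd68 was known to be lower when the list was drawn up.

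None of the membrane proteins, Cd68 included, passed the edgeR test. Lamp1, a major glycoprotein of the lysosomal membrane, had 500.1, 507 and 486 CPM in shIGF2BP1, against 478, 457 and 433 CPM in shNT. All shIGF2BP1 libraries were above all shNT libraries, a separation seen upward in 6.06% of tested genes, but the log2 fold change was 0.13 ± 0.21 (SE, edgeR adjusted p = 0.937). Lamp2, its paralog that also serves chaperone-mediated autophagy, had 389, 454 and 285 CPM in shIGF2BP1, against 495, 394 and 354 CPM in shNT. The groups overlapped (log2 fold change -0.14 ± 0.25, edgeR adjusted p = 0.94), and the sign turned when shIGF2BP1 replicate 3 or shNT replicate 1 was left out. Cd63, a tetraspanin of late endosomes and exosomes, had 199, 267 and 238 CPM in shIGF2BP1, against 275, 202 and 276 CPM in shNT, again overlapping (edgeR adjusted p = 0.955). Scarb2, the receptor that carries glucocerebrosidase to lysosomes, averaged 62.6 ± 5.09 CPM in shIGF2BP1 and 66 ± 12.1 CPM in shNT (SD, n = 3 each). In this role list, Cd68 was thus the only gene whose log2 fold change was further than 0.14 from 0.

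Of the proteases, 7 of 8 were tested, 2 with a negative and 5 with a positive log2 fold change (median 0.16). Ctsd, the main aspartic protease, had 493, 579.8 and 426 CPM in shIGF2BP1, against 490.3, 412 and 333 CPM in shNT. Ctsb, a cysteine protease, had 414, 505 and 445 CPM in shIGF2BP1, against 425, 427 and 373 CPM in shNT. Both sets overlapped, with log2 fold changes of 0.28 ± 0.24 and 0.16 ± 0.21. Ctsl, another cysteine protease, had 385, 447 and 384 CPM in shIGF2BP1, against 626, 475 and 399 CPM in shNT (log2 fold change -0.30 ± 0.24, edgeR adjusted p = 0.855). Its highest value was in shNT replicate 1, and the groups overlapped. Ctsz, an exopeptidase, had 86.1, 99.6 and 96 CPM in shIGF2BP1, against 118, 101 and 112 CPM in shNT. The groups did not overlap, but the log2 fold change was -0.23 ± 0.18 (edgeR adjusted p = 0.853). The carboxypeptidase Ctsa, which protects Glb1 and Neu1, averaged 305 ± 65.1 CPM in shIGF2BP1 and 268 ± 59.4 CPM in shNT, and the tripeptidyl peptidase Tpp1 109 ± 29.7 and 94.2 ± 4.77 CPM. The cysteine protease Ctsf varied most within groups, at 8.75 ± 5.14 CPM in shIGF2BP1 and 8.24 ± 6.26 CPM in shNT. Ctsh had 0 counts in every library, which allows up to 0.0848 to 0.119 CPM (3 counts, counting error only).

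The glycan hydrolases, whose loss causes storage diseases such as the mucopolysaccharidoses, gave 7 negative and 4 positive log2 fold changes of 11, with a median of -0.02. Sgsh, which removes sulfate from heparan sulfate, had 57, 55.8 and 49.8 CPM in shIGF2BP1, against 72.8, 56.5 and 73.2 CPM in shNT. Its groups overlapped only at the edge (log2 fold change -0.32 ± 0.20, edgeR adjusted p = 0.794). Manba, the lysosomal beta-mannosidase, had 128, 145 and 123 CPM in shIGF2BP1, against 118, 125 and 63.1 CPM in shNT (log2 fold change 0.37 ± 0.26, edgeR adjusted p = 0.818). The low value was shNT replicate 3, and without it the log2 fold change was 0.12. Naglu, another enzyme of heparan sulfate breakdown, averaged 75.3 ± 14.9 CPM in shIGF2BP1 and 94.5 ± 20.6 CPM in shNT. Gaa, the glycogen-degrading acid alpha-glucosidase, was the most abundant of the 11 at 864 ± 221 CPM in shIGF2BP1 and 890.1 ± 108 CPM in shNT. The beta-hexosaminidase subunit Hexa averaged 192 ± 55.2 and 178 ± 30.7 CPM, in shIGF2BP1 and shNT, and the beta-glucuronidase Gusb 79 ± 10.9 and 66.4 ± 24 CPM. The other 5 (Gla, Glb1, Ids, Idua and Neu1) had log2 fold changes from -0.08 to 0.13.

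Lipid-handling genes gave 6 negative and 1 positive log2 fold changes of 7, with a median of -0.24, and none passed the test. Npc1, the membrane protein that exports cholesterol from lysosomes, had 44.9, 71.6 and 54.9 CPM in shIGF2BP1, against 44.4, 94.6 and 134 CPM in shNT. The groups overlapped, because shNT replicate 1 was as low as the lowest shIGF2BP1 library. Its log2 fold change of -0.67 ± 0.35 (edgeR adjusted p = 0.753) ranged from -1.0 without shNT replicate 1 to -0.28 without shNT replicate 3. Npc2, the soluble carrier that hands cholesterol to it, averaged 199 ± 24 CPM in shIGF2BP1 and 235 ± 62.7 CPM in shNT. Psap, the precursor of the saposins that help sphingolipid hydrolases, had 605, 757 and 602 CPM in shIGF2BP1, against 1111, 745 and 584 CPM in shNT. Its highest value was shNT replicate 1, and the groups overlapped (log2 fold change -0.31 ± 0.28, edgeR adjusted p = 0.878). Grn, the progranulin precursor, had 394, 490.5 and 321 CPM in shIGF2BP1, against 555, 399 and 333 CPM in shNT, with overlap (edgeR adjusted p = 0.961). Asah1, the acid ceramidase, had 144, 138 and 164 CPM in shIGF2BP1, against 171, 213 and 157 CPM in shNT (log2 fold change -0.28 ± 0.20, edgeR adjusted p = 0.833). The acid lipase Lipa averaged 131 ± 27.7 CPM in shIGF2BP1 and 137 ± 47 CPM in shNT, and the palmitoyl thioesterase Ppt1 83.8 ± 10 and 81.1 ± 10 CPM.

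Of the channel and pump genes, 1 was lower and 3 were higher in shIGF2BP1. Atp6ap1, an accessory subunit of the V-ATPase, had 147, 192 and 157 CPM in shIGF2BP1, against 204, 195 and 196 CPM in shNT. The groups did not overlap, and edgeR gave -0.26 ± 0.19 on the log2 scale (adjusted p = 0.836). Mcoln1, the calcium channel whose activity leads to TFEB activation, had 40.7, 57.7 and 33.9 CPM in shIGF2BP1, against 31.3, 39.7 and 36.8 CPM in shNT, with overlap. The membrane-sector subunit Atp6v0d1 averaged 71.4 ± 2.71 CPM in shIGF2BP1 and 61.4 ± 9.14 CPM in shNT, and the regulatory subunit Atp6v1h 73.8 ± 3.71 and 69.7 ± 8.03 CPM. The transcription factors were lower in mean without separating. Tfeb had 15.8, 17.2 and 17.7 CPM in shIGF2BP1, against 20.7, 14.9 and 27.7 CPM in shNT (log2 fold change -0.32 ± 0.27, edgeR adjusted p = 0.864). Tfe3 had 68.3, 88.7 and 92.7 CPM in shIGF2BP1, against 85.6, 113 and 134 CPM in shNT (log2 fold change -0.41 ± 0.22, edgeR adjusted p = 0.76). shNT replicate 3 was the highest library for both. mRNA level does not report the activity of these factors, which is set largely by their location in the cell.

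**Figure D3:**
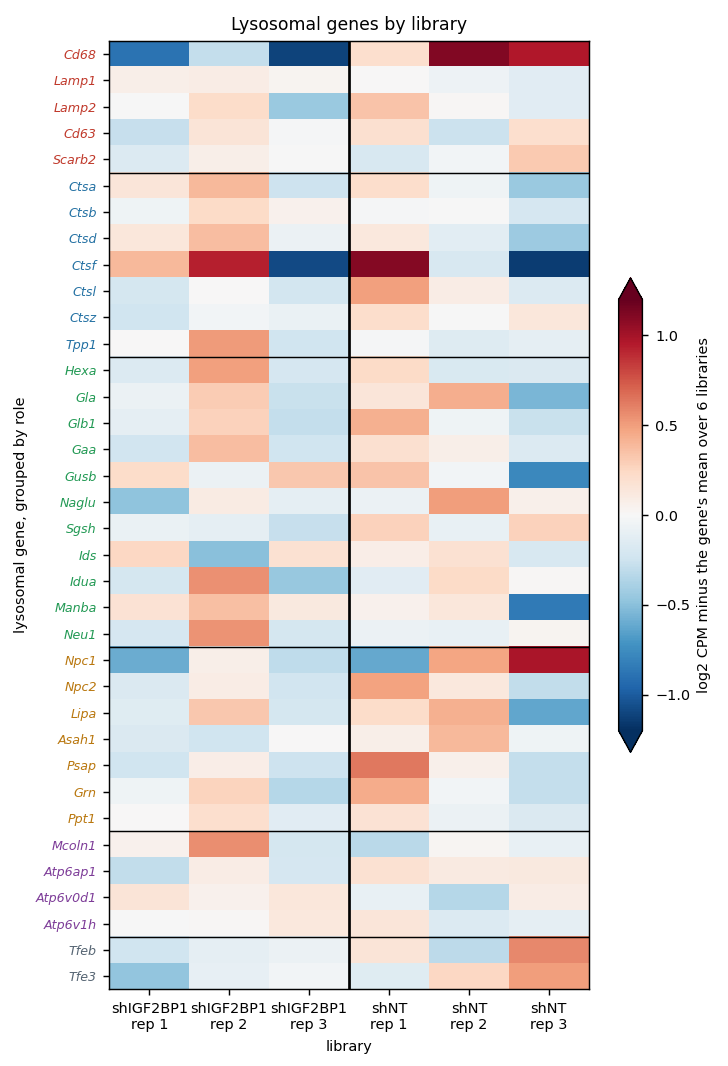
Heat map of log2 CPM minus each gene's mean over the 6 libraries for the 36 tested lysosomal genes, in role groups separated by lines; the 3 shIGF2BP1 libraries are left of the thick line and the 3 shNT libraries right of it. Cd68 is blue in all shIGF2BP1 libraries and red in all shNT libraries, whereas most enzymes are red in shIGF2BP1 replicate 2 and shNT replicate 1 and pale or blue in replicate 3 of either group.

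Within each group the members tended to be high or low in the same libraries. In shIGF2BP1, 28 of 36 members (77.8%) were highest in replicate 2, where 38.8% of all tested genes were, and 22 (61.1%) were lowest in replicate 3, against 36.9% of all genes. In shNT, 18 (50%) were highest in replicate 1, against 35.4% of all genes, and 19 (52.8%) were lowest in replicate 3, against 34.5%. The coefficient of variation within a group had a median over members of 15.6% in shIGF2BP1 and 17.9% in shNT, and ran from 2.15% for Lamp1 in shIGF2BP1 to 76% for Ctsf in shNT. The 4 members whose groups did not overlap were Cd68, Ctsz and Atp6ap1, which were lower in shIGF2BP1, and Lamp1, which was higher. Non-overlap in either direction was seen in 11.6% of all tested genes.

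Levels were compared between members as CPM per kilobase of annotated exon. Psap was the most abundant, at 239 in shIGF2BP1 and 297 in shNT, followed by Ctsd (213 and 175), Gaa (181 and 186) and Lamp1 (186 and 171). Each of these 4 exceeded at least 98.5% of tested genes. Over all libraries Cd68 was 31st of 37 and exceeded 46.1% of tested genes, but its place differed by group. In shIGF2BP1, at 3.28, it was above only Tfeb and Ctsf among the tested members. In shNT, at 9.43, it was above Npc1, Atp6v1h, Ids, Mcoln1, Idua, Tfeb and Ctsf.

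Genes next to Cd68 were read because it is closely flanked on chromosome 11. The nearest tested protein-coding gene on each side is Eif4a1, a helicase of translation initiation 783 bases away on the same strand, and Mpdu1, a glycosylation factor 1571 bases away on the same strand. Eif4a1 averaged 601 ± 78.9 CPM in shIGF2BP1 and 581 ± 69.6 CPM in shNT (log2 fold change 0.05 ± 0.23), and Mpdu1 averaged 13.1 ± 1.24 and 17.6 ± 6.73 CPM (-0.42 ± 0.30). Fxr2, Sat2, Senp3 and Tnfsfm13, the others among the 3 on each side, had log2 fold changes from -0.13 to 0.29, and none of the 6 passed the edgeR test (adjusted p = 0.835 to 0.983). No annotated gene shared exon sequence with Cd68. Exons of another gene covered over 10% of the annotated exon bases of Ctsd, Ctsl, Sgsh, Ctsb, Hexa and Ctsa, which could make their counts less certain. The other genes for Ctsb (Fdft1) and Ctsa (Pltp) averaged 1690 and 2830 counts a library. Those for Hexa (Tmem202) and Sgsh (Card14) averaged 15.2 and 28.3. Those for Ctsd (Gm49369) and Ctsl (Gm47123) had no count value, so these overlaps may not have entered the counting. The effect of the overlaps on the counts was not tested. For Ctsd the other gene, Gm49369, is on the same strand and covers 34.4% of its exon bases. For the other 5 it is on the opposite strand, and the strand setting of the counting is not given in the sources used here.

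Beyond the members, 130 further lysosomal genes were read, of which 117 were tested, and 0 were called by edgeR in either direction. Of these, 59 had a negative and 58 a positive log2 fold change, with a median of -0.02. At an unadjusted p under 0.05, 2 were lower and 3 higher, against 3.99% and 3.17% of all genes. Among 30 tested hydrolases, 17 were lower, and the smallest p values were for Cpq, a dipeptidase, at 16.5 ± 3.18 CPM in shIGF2BP1 and 31.5 ± 6 CPM in shNT (log2 fold change -0.93 ± 0.25, edgeR adjusted p = 0.478). Galns, which removes sulfate from keratan sulfate, followed at 77.7 ± 15.7 CPM in shIGF2BP1 and 125 ± 20 CPM in shNT (-0.69 ± 0.22, adjusted p = 0.562 in edgeR). The cysteine protease Ctsk was at 61.3 ± 14.9 CPM in shIGF2BP1 and 81.7 ± 8.97 CPM in shNT (-0.41 ± 0.22). Cpq and Galns, which were picked by smallest p, had no overlap between groups, like Cd68 and 5.59% of all tested genes in that direction.

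Membrane proteins outside the members gave 11 lower and 12 higher of 23, led by Slc29a3 (log2 fold change 0.42), a nucleoside transporter, the sialomucin Cd164 (-0.37) and Spns1 (0.31), a lysophospholipid transporter. V-ATPase subunits gave 5 lower and 11 higher of 16, with a median of 0.12, led by Atp6v0a2 (-0.67), Atp6v1g2 (0.84) and Atp6v1e1 (0.26). Atp6v0a2 rested on shNT replicate 3, at 39.1 CPM against 11.7 to 16.6 CPM in the other 5 libraries, and was -0.05 without it. Genes for enzyme activation and delivery gave 10 lower and 10 higher of 20. Nagpa, which uncovers the mannose 6-phosphate tag on enzymes, averaged 32.3 ± 1.06 CPM in shIGF2BP1 and 19.5 ± 7.16 CPM in shNT (log2 fold change 0.73 ± 0.29, edgeR adjusted p = 0.683). Gnptab, which encodes subunits of the enzyme that adds that tag, had 0.47 ± 0.24 on the log2 scale and the sulfatase activator Sumf1 0.46 ± 0.24. The groups did not overlap for any of these 3, a separation seen upward in 6.06% of tested genes, but they were picked by smallest p. shNT replicate 3 was the lowest library for all 3, at 11.4 (Nagpa), 43.7 (Gnptab) and 20.8 (Sumf1) CPM. Leaving out 1 library put their log2 fold changes as low as 0.45, 0.26 and 0.28, in that order.

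Regulators of lysosome formation and nutrient sensing gave 11 lower and 7 higher of 18, led by Rragd, a Rag GTPase, at 115 ± 20.6 CPM in shIGF2BP1 and 81.8 ± 8.2 CPM in shNT (log2 fold change 0.49 ± 0.20, edgeR adjusted p = 0.686). Mitf, a relative of TFEB, averaged 11.2 ± 2.06 CPM in shIGF2BP1 and 18 ± 6.9 CPM in shNT, and Fnip2, a folliculin partner, 66.3 ± 17.5 and 96.8 ± 40 CPM. Genes for late endosome fusion and positioning gave 5 lower and 5 higher of 10. The tethering subunit Vps11 averaged 80.2 ± 8.98 CPM in shIGF2BP1 and 48.9 ± 16.8 CPM in shNT (log2 fold change 0.72 ± 0.26, edgeR adjusted p = 0.635), its partner Vps16 126 ± 3.68 and 99.5 ± 19.7 CPM, and the late endosome GTPase Rab7 169 ± 18.4 and 213 ± 20.6 CPM. For Vps11 the lowest library was shNT replicate 3, at 31.1 CPM against 51.1 and 64.4 CPM in shNT replicates 1 and 2. Of the 117, the groups did not overlap for 4 lower and 12 higher, against 5.59% and 6.06% of all tested genes.

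**Figure D4:**
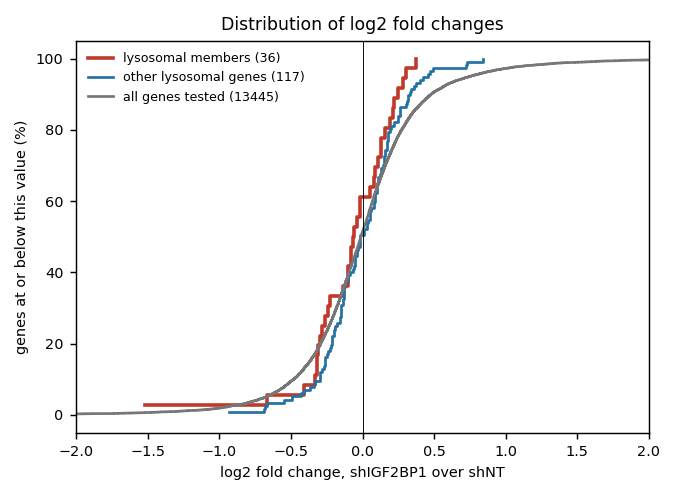
Cumulative share of genes (%) by log2 fold change, shIGF2BP1 over shNT, for the 36 tested members, the 117 other tested lysosomal genes and all 13445 genes tested; the axis ends at -2 and 2, beyond which some of all genes lie. All 3 curves cross 50% near 0, and the long step at the left of the members' curve is Cd68 at -1.52.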

How the data were processed

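Raw read counts per gene were deposited by the authors as 1 table with 1 column per library, not normalised. Tools listed in the submitters' processing notes are HISAT2 (2.1.0), HTSeq and bcl2fastq, on build GRCm38. Annotation release, strand setting and read filters: not given in the sources used here. Columns were joined to samples by library name. Symbols, coordinates and exon lengths came from GENCODE M21, which matched 42462 of 43629 gene IDs, and 92 spike-in rows with 0 counts were left out.

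Counts were scaled by TMM and tested in edgeR 4.0.16 (R 4.3.3) with the two-sided quasi-likelihood F test, robust, without covariates, over the 13445 genes kept by filterByExpr (minimum count 10, minimum total 15), with Benjamini-Hochberg adjustment over all of them and a threshold of 0.05. SE was the log2 fold change over the square root of F. Alternatives were RLE, library size only, no filter, mean CPM of 5 or more, a replicate block, DESeq2 1.42.0, limma-voom (limma 3.58.1) and each library left out. Library totals are given with the results. Floors of 3 counts cover counting error only.

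The members, role groups, pathway lists and markers were chosen with earlier results of these data known, so no test was made over a list. Values in every library are given for Cd68, Lamp1, Lamp2, Cd63, Ctsb, Ctsd, Ctsl, Psap, Grn, Tfeb and Tfe3 and for the 2 members of each role group with the smallest p. Of each other list the 3 genes with the smallest p are named. The single markers named were chosen after their values were seen. A planned comparison of protein sequences was not made.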

Additional observations from a re-analysis of the deposited data

How the results depend on the processing

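No lysosomal member was called in 11 of the 13 alternatives, and 1, Cd68, was called with no filter (log2 fold change -1.51, adjusted p = 0.0187) and with DESeq2 (-1.52, adjusted p = 0.00811). Cd68 stayed between -1.79 and -1.34 when libraries were left out. Genes called overall were 138 without a filter, 82 with DESeq2, 18 with the replicate block, 1 with the filter at mean CPM 5 or limma-voom, 5 without shNT replicate 3 and 1 without any other library. Leaving out libraries put the members' median between -0.24 and 0.033, with 15 to 26 of them lower. Deviations from the group means correlated at 0.19, -0.09 and 0.28 between libraries of the same number, and at -0.37 to 0.22 between those of different numbers. These ranges overlapped and the labels leave the origin of the replicates unstated. The numbers were therefore not taken to pair the samples, though a pairing is not excluded. With the replicate block, Cd68 was -1.51 (adjusted p = 0.163), 0 members were called, and Igf2bp1 turned to -0.047. Igf2bp1 was also -0.24 with limma-voom and -1.24 to 0.76 when libraries were left out.

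Of 36 members, 21 kept their sign in all 13 alternatives and 15 changed it in at least 1, none of them called. With library size only, Scarb2 was 0.00054, Gla 0.024, Glb1 0.0002, Gaa 0.039, Ids and Idua 0.063 each, Lipa 0.018 and the neighbour Senp3 0.032. At mean CPM 5, Ids was 0.00037 and Idua 0.0051. When libraries were left out, sign changes came with ranges of -0.29 to 0.021 for Lamp2, -0.23 to 0.012 for Cd63, -0.18 to 0.079 for Scarb2, -0.38 to 0.89 for Ctsf, -0.012 to 0.36 for Tpp1, -0.14 to 0.26 for Hexa, -0.30 to 0.16 for Gla, -0.25 to 0.14 for Glb1, -0.26 to 0.059 for Gaa, -0.15 to 0.20 for Ids, -0.36 to 0.17 for Idua, -0.15 to 0.25 for Neu1, -0.32 to 0.14 for Lipa, -0.26 to 0.13 for Grn, -0.038 to 0.15 for Ppt1, -0.036 to 0.63 for Sat2, -0.043 to 0.16 for Eif4a1, -0.092 to 0.026 for Senp3 and -0.093 to 0.28 for Tnfsfm13. The cause was not tested. The typical 95% interval of a member was 0.53 either side on the log2 scale, which limits what 3 libraries a group can show.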
